A study of Mus musculus with 6 samples.

Results

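The 40 genes described here are known from other work as genes of the integrated stress response, the programme run by the transcription factor ATF4, together with the amino acid and tRNA charging genes it controls. They hold 5 transcription factors, 11 stress effectors and secreted factors, 10 enzymes of amino acid and one-carbon metabolism, 6 amino acid transporters and 8 tRNA synthetases. Probes matched 39 of the 40, and 37 were tested, out of 19792 genes tested in all. No probe was matched to Pycr1, and Fgf21 and Slc7a11 were too dim to test.

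RNA came from trunks of mouse embryos at embryonic day 9.5, a piece that runs from the otic vesicle to somite 15 with the forelimb buds attached. The Arid3b-null group, embryos lacking the ARID-domain transcription factor Arid3b, had 3 arrays, and the wild-type group also had 3. Each array carried RNA pooled from 4 embryos, so the spread between arrays is a spread between pools. The labels give neither the allele nor the strain, and do not say whether the pools came from separate litters.

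Levels are given as log2 of the processed signal relative to the 75th percentile of the array, so a level of 0 sits at that percentile. A difference is Arid3b-null minus wild type on the log2 scale with its standard error, and a gene rose or fell where limma's adjusted p was under 0.05. The arrays correlated at 0.990 to 0.993 within the Arid3b-null group, at 0.989 to 0.995 within the wild-type group and at 0.969 to 0.983 between groups. Arid3b itself stood at 0.54, 0.65 and 0.46 in Arid3b-null trunks, against 2.18, 2.57 and 1.97 in wild-type trunks, which left 31.0% of the wild-type signal. Its other 2 probes, dim in Arid3b-null trunks, had 26.9% and 10.6% left, and the labels do not place these probes against the deletion. Of 35 markers of somite, spinal cord, forelimb bud, heart, vessel and blood, 34 were well above background on all 6 arrays, and the exception was Myf5. Of the 34 tested 0 rose and 9 fell, where 13.6% and 12.9% of all tested genes did, and at an unadjusted p under 0.05 (limma) 1 was higher and 11 were lower. Some markers were far lower. The lowest difference was -3.66 in spinal cord, -1.95 in somite, -1.90 in forelimb bud, -1.45 in blood and -0.39 in heart and vessel. In a bulk sample fewer cells of a type and less RNA per cell cannot be told apart. Among 10 markers of tissue outside this trunk piece 5 were tested, of which 0 rose and 0 fell and 0 differed at an unadjusted p under 0.05 (limma). Of these 10 markers 4 were well above background on all 6 arrays, while the forebrain factor Six3 and the placental gene Tpbpa were below it on all 6.

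In the integrated stress response, kinases that sense amino acid shortage, endoplasmic reticulum stress, haem shortage or viral RNA phosphorylate the initiation factor eIF2. General translation then slows while the Atf4 message is translated more, so ATF4 is set largely at the level of translation, which arrays of RNA do not measure. ATF4 binds DNA with C/EBP family partners at short response elements and raises genes for amino acid uptake, amino acid synthesis, tRNA charging and, under lasting stress, cell death.

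The core of that response element, TGATGNAA on either strand, was looked for in RefSeq promoter windows of build GRCm38.p6 that run from 250 bases before to 50 bases after each gene's start. Of the 40 genes 32 had a window, and 11 of these (34.4%) held the core, against 4.51% of 27025 genes with a window. Among members that were also tested on these arrays 8 held the core and 21 did not, where 2.76% of all 11268 tested genes with a window held it. The 8 tested members with the core are shown because their changes are described below, each read 5′ to 3′ along the gene's strand with the core in capitals, and Aars has 2 copies.
Chac1: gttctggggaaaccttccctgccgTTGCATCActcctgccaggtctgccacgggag
Trib3: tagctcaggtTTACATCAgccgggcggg
Vldlr: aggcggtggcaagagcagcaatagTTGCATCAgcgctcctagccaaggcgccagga
Nupr1: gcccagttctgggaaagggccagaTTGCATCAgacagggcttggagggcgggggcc
Atf3: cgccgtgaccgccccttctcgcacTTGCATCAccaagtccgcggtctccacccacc
Asns: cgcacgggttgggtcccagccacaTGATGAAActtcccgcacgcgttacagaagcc
Gars: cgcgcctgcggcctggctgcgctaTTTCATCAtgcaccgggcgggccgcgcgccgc
Aars site 1: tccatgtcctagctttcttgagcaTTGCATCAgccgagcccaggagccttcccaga
Aars site 2: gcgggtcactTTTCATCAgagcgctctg
The Chac1 stretch lies at chr2:119351025-119351080 on the plus strand, and its core begins 193 bases before the start. Those of Vldlr (chr19:27216796-27216851, plus), Atf3 (chr1:191183412-191183467, minus) and Nupr1 (chr7:126625549-126625604, minus) have the core 200, 110 and 110 bases before the start. The Asns core, 23 bases before the start at chr6:7693201-7693256 on the minus strand, is the only one of these that reads TGATGNAA along the gene's own strand. The Trib3 stretch (chr2:152344029-152344056, minus) and the second of Aars (chr8:111033841-111033868, plus) lie past the start. The first Aars core is 112 bases before the start (chr8:111033706-111033761, plus), and the Gars core is 30 bases before it (chr6:55037947-55038002, plus). The other 3 genes with the core were Fgf21, Pycr1 and Slc7a11, which have no tested value. A match describes letters in a window and does not show that a factor binds there.

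Of the 37 tested genes 25 rose, 1 fell and 11 did not pass the test, where 13.6% of all tested genes rose and 12.9% fell. The genes of the list were chosen with earlier results of these data known. Their counts, here and by role, are a description and no independent support. The median difference of the 37 was 0.83, against -0.04 over all tested genes. At least 2-fold rises were seen for 13 of the 37, against 3.7% of all tested genes. In 28 of the 37 every Arid3b-null array lay above every wild-type array, against 23.0% of all tested genes, and in 2, Wars and Aars, every Arid3b-null array lay below, against 23.1%. Adm2 and Aldh1l2 are counted in the 25, the 13 and the 28, and Gdf15 in the 28. All of them met the filter for testing only through the Arid3b-null arrays. Such a filter favours a rise, so their place in these counts is no independent support. With no filter on dim probes 18 rose and 0 fell, and the calls that ended there were those of Cebpb, Ppp1r15a, Mthfd2, Slc7a1, Slc7a5, Sars, Cars and Wars. With a normexp correction by each spot's local background 0 rose and 0 fell, 21 were higher at an unadjusted p under 0.05 (limma), and 2 of all tested genes rose. The stress effectors had the highest median difference of the roles, 2.55 over 10 genes, followed by 0.87 over 5 transporters, 0.83 over 5 transcription factors, 0.72 over 9 enzymes and 0.08 over 8 tRNA synthetases. Adm2 and Gdf15 enter the median of the effectors and Aldh1l2 that of the enzymes, with the same limit.

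**Figure D1:**
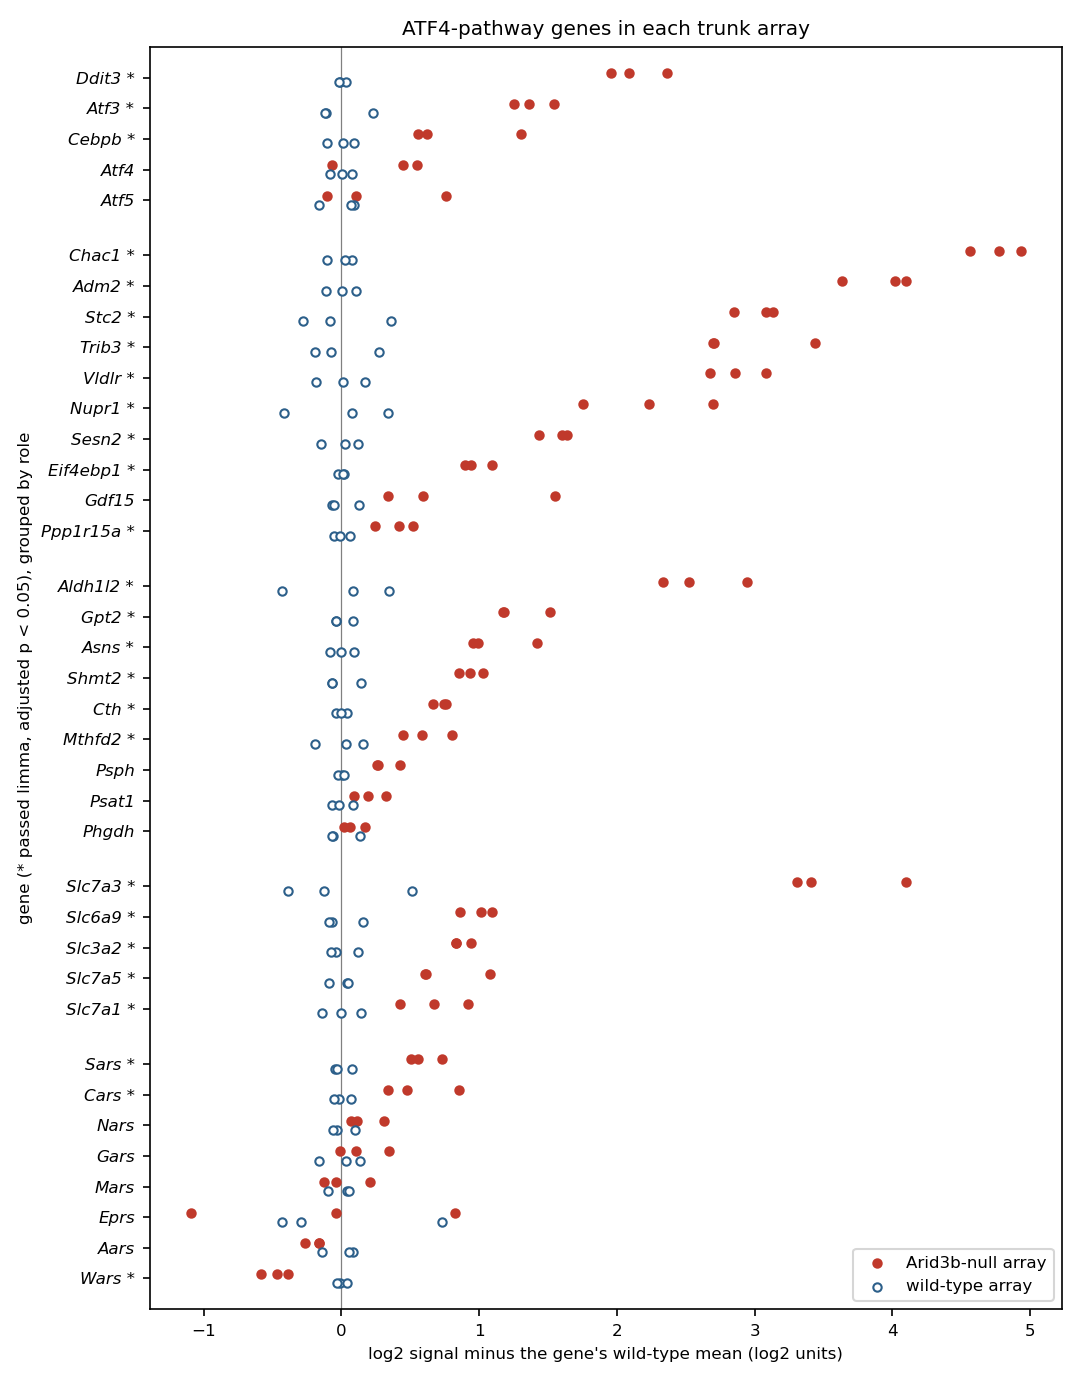
Log2 signal of each of the 37 tested genes on each array, minus the gene's wild-type mean, with genes grouped by role and an asterisk where limma's adjusted p was under 0.05. Filled red points are the 3 Arid3b-null arrays and open blue points the 3 wild-type arrays, and the red points lie to the right of all blue points in 28 genes and to the left of them in Wars and Aars.

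Among the transcription factors Ddit3, Atf3 and Cebpb rose, and Atf4 and Atf5 did not pass the test. Ddit3, which encodes CHOP, the factor that turns a lasting stress response toward cell death, stood at -0.07, 0.20 and -0.20 in Arid3b-null trunks, against -2.18, -2.13 and -2.18 in wild-type trunks. The groups were far apart relative to their spread, and Ddit3 rose by 2.14 ± 0.13, or 4.40-fold (limma, adjusted p = 0.000391). Atf3, a factor induced by ATF4 and by many other stresses, stood at -0.75, -0.46 and -0.65 in Arid3b-null trunks, against -2.12, -1.77 and -2.13 in wild-type trunks. It rose by 1.39 ± 0.14, or 2.61-fold (limma, adjusted p = 0.00167), with no overlap between the groups. Cebpb, a C/EBP factor that pairs with ATF4, stood at -1.07, -0.38 and -1.14 in Arid3b-null trunks, against -1.79, -1.60 and -1.68 in wild-type trunks. Arid3b-null replicate 2 was the highest of the 6, and Cebpb rose by 0.83 ± 0.21 (limma, adjusted p = 0.0308). Without wild-type replicate 1, 2 or 3 the adjusted p of Cebpb was 0.0955, 0.0645 and 0.0729.

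Atf4 stood at 5.74, 5.84 and 5.22 in Arid3b-null trunks, against 5.21, 5.37 and 5.30 in wild-type trunks. Arid3b-null replicate 3 lay among the wild-type arrays while the other two lay above them, and the difference of 0.31 ± 0.18 did not pass the test (limma, adjusted p = 0.246). Without that array the difference was 0.50 and passed (limma, adjusted p = 0.0406). It was the only 1 of the 6 fits with an array left out in which Atf4 passed. Over those 6 fits the difference ran from 0.19 to 0.50, with an adjusted p of up to 0.518 by limma. In 7 other alternatives, normexp by local background aside, Atf4 passed in 0. A second Atf4 probe gave 0.36 ± 0.15 (limma, adjusted p = 0.116). Atf5, a close relative of ATF4 that is also controlled by translation, stood at 3.14, 3.79 and 2.93 in Arid3b-null trunks, against 2.87, 3.12 and 3.10 in wild-type trunks. The groups overlapped, with a difference of 0.25 ± 0.23 (limma, adjusted p = 0.451).

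Of the 10 tested stress effectors and secreted factors 9 rose, and 7 of them by at least 2-fold, where 13.6% and 3.7% of all tested genes did. Adm2, which is in both counts, and Gdf15 were tested only through the Arid3b-null arrays, so their place here is no independent support. Chac1, an enzyme that breaks down glutathione, stood at 2.18, 2.55 and 2.39 in Arid3b-null trunks, against -2.49, -2.30 and -2.36 in wild-type trunks. It rose by 4.76 ± 0.13, or 27.0-fold (limma, adjusted p = 3.82e-05), the second highest difference of all 19792 genes tested. With a normexp background correction that uses each array's median background and an offset of 50 the Chac1 rise was 17.1-fold. Trib3, a pseudokinase that binds and restrains ATF4 and CHOP, stood at 1.53, 2.28 and 1.54 in Arid3b-null trunks, against -1.24, -1.36 and -0.89 in wild-type trunks. Arid3b-null replicate 2 was again the highest, and Trib3 rose by 2.95 ± 0.24, or 7.71-fold (limma, adjusted p = 0.000779).

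Sesn2, a leucine sensor that restrains the growth kinase complex mTORC1, stood at 2.29, 2.50 and 2.46 in Arid3b-null trunks, against 0.72, 0.98 and 0.89 in wild-type trunks. It rose by 1.56 ± 0.12, or 2.94-fold, with tight groups that did not overlap (limma, adjusted p = 0.000668). Eif4ebp1, an inhibitor of cap-dependent translation that mTORC1 keeps inactive, stood at 5.33, 5.13 and 5.18 in Arid3b-null trunks, against 4.25, 4.21 and 4.24 in wild-type trunks. It rose by 0.98 ± 0.10, or 1.97-fold (limma, adjusted p = 0.00171). Ppp1r15a encodes GADD34, which brings a phosphatase to eIF2 and so ends the response, and stood at 1.43, 1.53 and 1.26 in Arid3b-null trunks, against 0.96, 1.08 and 1.0 in wild-type trunks. Its groups did not overlap, but the rise of 0.39 ± 0.11 was small and near the threshold (limma, adjusted p = 0.0446). With the slide as a block the adjusted p of Ppp1r15a was 0.0636. Without wild-type replicate 1, 2 or 3 it was 0.141, 0.0824 and 0.0967, and without Arid3b-null replicate 1 or 2 it was 0.109 and 0.115.

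Stc2, a secreted glycoprotein also known to respond to hypoxia, stood at 1.41, 1.36 and 1.13 in Arid3b-null trunks, against -2.0, -1.36 and -1.80 in wild-type trunks. It rose by 3.02 ± 0.18, or 8.12-fold (limma, adjusted p = 0.000391). Vldlr, a lipoprotein and reelin receptor that both ATF4 and hypoxia-inducible factors are known to raise, stood at 2.17, 2.39 and 1.98 in Arid3b-null trunks, against -0.87, -0.52 and -0.67 in wild-type trunks. It rose by 2.87 ± 0.15, or 7.32-fold (limma, adjusted p = 0.000302). None of the wild-type arrays measured a second Vldlr probe above background, and it was tested only through the Arid3b-null arrays, which favours a rise. Its difference was 2.46 ± 0.10 (limma, adjusted p = 0.000127), and as a bound it was at least 4.83-fold higher in Arid3b-null trunks. For the bound, which holds on the scale of the main fit only, each wild-type array counted at its own signal or at the lowest signal well above background there, whichever was higher.

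The dimmest effectors had wild-type signals near background. Adm2, a peptide hormone of the calcitonin family, stood at -1.96, -2.42 and -2.04 in Arid3b-null trunks, against -6.05, -6.17 and -5.95 in wild-type trunks. It rose by 3.91 ± 0.15 (limma, adjusted p = 0.000119), with 1 of 3 wild-type arrays above background. That rise was 15.1-fold, and 3.10-fold with the normexp correction by array background. Nupr1, a small chromatin protein induced by stress, stood at -2.21, -1.75 and -2.69 in Arid3b-null trunks, against -4.37, -4.86 and -4.10 in wild-type trunks. It rose by 2.23 ± 0.29 (limma, adjusted p = 0.00326), which was 4.68-fold and 2.42-fold with that correction.

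Gdf15, a secreted stress hormone, stood at -5.89, -4.67 and -5.63 in Arid3b-null trunks, against -6.29, -6.28 and -6.10 in wild-type trunks, where 1 of 3 arrays measured it. Every Arid3b-null array was above every wild-type array, but replicate 2 stood well apart, and the difference of 0.83 ± 0.30 did not pass the test (limma, adjusted p = 0.0905). Fgf21, the other stress hormone, was below background on all 6 arrays, so no direction could be read for it.

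**Figure D2:**
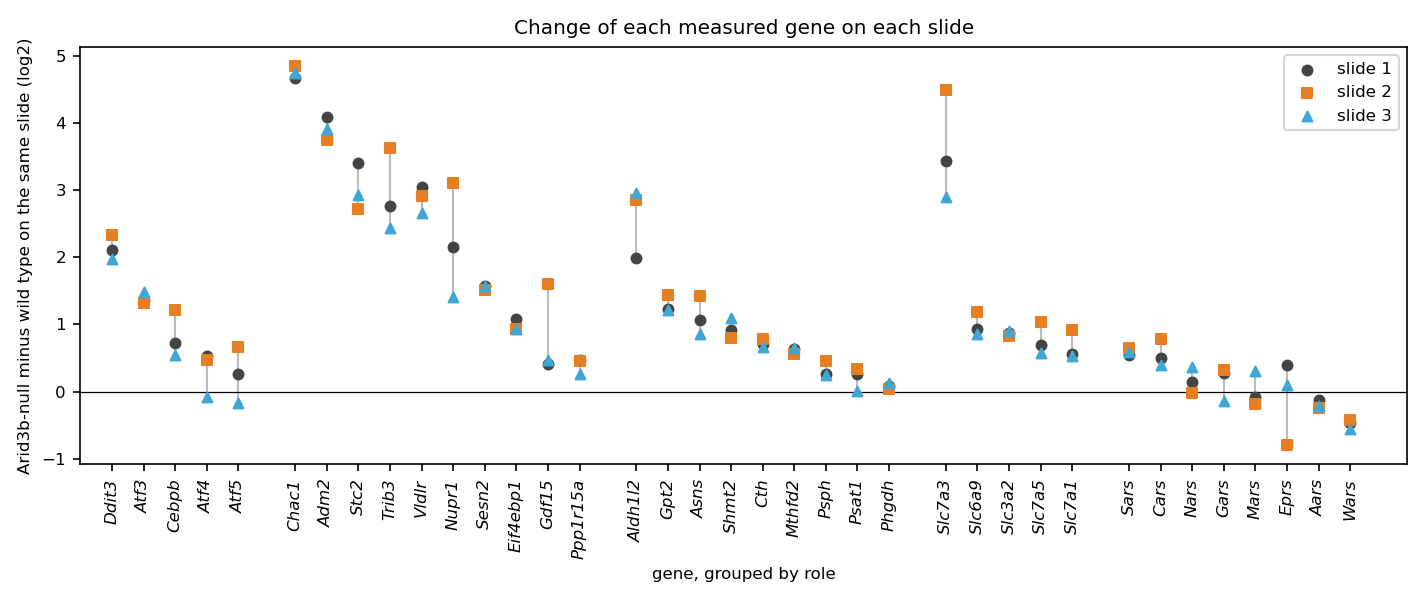
Arid3b-null minus wild type on the log2 scale within each slide, 1 marker shape a slide, for the 37 tested genes in the order of roles. All 25 genes that rose lie above 0 on the 3 slides, which follows from their groups not overlapping. Of those that rose the widest spread was in Nupr1 and Slc7a3.

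Of the 9 tested enzymes 6 rose, where 13.6% of all tested genes did. Aldh1l2, 1 of the 6, was tested only through the Arid3b-null arrays. The 3 enzymes that make serine from a glycolytic intermediate were the ones that did not pass. Asns, which makes asparagine and carries a core close to its start, stood at 4.81, 5.25 and 4.78 in Arid3b-null trunks, against 3.74, 3.82 and 3.92 in wild-type trunks. It rose by 1.12 ± 0.15, or 2.18-fold, with no overlap (limma, adjusted p = 0.00395). Gpt2, a mitochondrial alanine transaminase, stood at 1.26, 1.60 and 1.26 in Arid3b-null trunks, against 0.04, 0.17 and 0.04 in wild-type trunks. It rose by 1.29 ± 0.13, or 2.45-fold (limma, adjusted p = 0.00154).

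The 3 mitochondrial folate enzymes of the list rose. Aldh1l2, which oxidises formyl folate in mitochondria, stood at -3.42, -2.81 and -3.23 in Arid3b-null trunks, against -5.40, -5.66 and -6.18 in wild-type trunks, where 2 of 3 arrays measured it. It rose by 2.60 ± 0.24 (limma, adjusted p = 0.00127), which was 6.06-fold and 2.07-fold with the normexp correction by array background. Shmt2, which splits serine into glycine and a one-carbon unit, stood at 3.53, 3.61 and 3.71 in Arid3b-null trunks, against 2.61, 2.82 and 2.61 in wild-type trunks, and rose by 0.94 ± 0.11, or 1.92-fold (limma, adjusted p = 0.00271). Mthfd2, the next enzyme of that pathway, stood at 1.52, 1.66 and 1.88 in Arid3b-null trunks, against 0.89, 1.11 and 1.23 in wild-type trunks. Its rise of 0.61 ± 0.14 had an adjusted p of 0.0235 by limma, which was 0.0811 and 0.0589 without wild-type replicate 1 or 2, and 0.0611 and 0.0655 without Arid3b-null replicate 2 or 3. Cth, which makes cysteine from cystathionine, stood at 0.55, 0.54 and 0.46 in Arid3b-null trunks, against -0.17, -0.25 and -0.21 in wild-type trunks. It rose by 0.72 ± 0.10, or 1.65-fold (limma, adjusted p = 0.00356), and a second probe gave 0.77 ± 0.16.

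The serine synthesis enzymes showed smaller differences. Phgdh, the first enzyme of the pathway, stood at 4.49, 4.65 and 4.53 in Arid3b-null trunks, against 4.41, 4.60 and 4.40 in wild-type trunks, so the groups overlapped and the difference was 0.08 ± 0.11 (limma, adjusted p = 0.607). Psat1, the second enzyme, had a difference of 0.20 ± 0.11 (limma, adjusted p = 0.224). Psph, the last, stood at 0.55, 0.71 and 0.54 in Arid3b-null trunks, against 0.29, 0.26 and 0.30 in wild-type trunks. The Psph groups did not overlap, and its difference of 0.32 ± 0.10 was just short of the threshold (limma, adjusted p = 0.0594).

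All 5 tested amino acid transporters rose, where 13.6% of all tested genes did. Slc7a3, a carrier of arginine and lysine, stood at -0.04, 0.75 and 0.05 in Arid3b-null trunks, against -3.48, -3.74 and -2.84 in wild-type trunks. It rose by 3.61 ± 0.30, or 12.2-fold (limma, adjusted p = 0.000854), and by 6.08-fold with the normexp correction by array background. Slc7a1, another carrier of the same amino acids, stood at 2.87, 3.36 and 3.12 in Arid3b-null trunks, against 2.30, 2.45 and 2.59 in wild-type trunks. It rose by 0.67 ± 0.16, or 1.59-fold (limma, adjusted p = 0.0229), and its adjusted p was 0.0811 and 0.0617 without wild-type replicate 1 or 2, and 0.0576 and 0.0651 without Arid3b-null replicate 2 or 3.

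Slc7a5 and Slc3a2 encode the light and heavy chains of the LAT1 exchanger, which takes up leucine and other large neutral amino acids. Slc3a2 stood at 4.36, 4.47 and 4.36 in Arid3b-null trunks, against 3.49, 3.65 and 3.45 in wild-type trunks, and rose by 0.87 ± 0.11, or 1.83-fold (limma, adjusted p = 0.00283). Slc7a5 stood at 0.37, 0.85 and 0.38 in Arid3b-null trunks, against -0.32, -0.19 and -0.19 in wild-type trunks. It rose by 0.77 ± 0.16, or 1.70-fold (limma, adjusted p = 0.0146), with an adjusted p of 0.0568 without wild-type replicate 1, and a second probe rose by 1.17 ± 0.14. Slc6a9, the glycine transporter GLYT1, stood at 2.11, 2.34 and 2.27 in Arid3b-null trunks, against 1.18, 1.16 and 1.41 in wild-type trunks. It rose by 0.99 ± 0.12, or 1.99-fold (limma, adjusted p = 0.00282), and a second probe gave 1.04 ± 0.12. Slc7a11, the cystine carrier xCT, was measured above background on 2 of 3 Arid3b-null arrays and 2 of 3 wild-type arrays and was not tested.

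The tRNA synthetases, which load each amino acid on its tRNA, did not move together. Of 8 tested 2 rose, 1 fell and 5 did not pass, where 13.6% of all tested genes rose and 12.9% fell. In 2 the Arid3b-null arrays were all above the wild-type arrays, against 23.0% of all tested genes. In Wars and Aars they were all below, against 23.1%. Sars, the seryl enzyme, stood at 4.96, 5.19 and 5.02 in Arid3b-null trunks, against 4.41, 4.54 and 4.42 in wild-type trunks, and rose by 0.60 ± 0.11, or 1.51-fold (limma, adjusted p = 0.0104). Cars, the cysteinyl enzyme, stood at 4.10, 4.49 and 3.97 in Arid3b-null trunks, against 3.61, 3.70 and 3.58 in wild-type trunks. Its rise of 0.56 ± 0.15, or 1.47-fold, was near the threshold (limma, adjusted p = 0.0385). The adjusted p of Cars was 0.109, 0.0757 and 0.0944 without wild-type replicate 1, 2 or 3, and 0.0713 and 0.0668 without Arid3b-null replicate 1 or 2.

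Wars, the tryptophanyl enzyme, stood at 4.24, 4.32 and 4.12 in Arid3b-null trunks, against 4.70, 4.74 and 4.68 in wild-type trunks. Its groups did not overlap and it fell by 0.48 on the log2 scale, with a standard error of 0.10 (limma, adjusted p = 0.0174). Without wild-type replicate 1 or 2 the adjusted p of Wars was 0.0648 and 0.0556, and a second probe had a difference of -0.20 ± 0.19 (limma, adjusted p = 0.477).

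Aars, the alanyl enzyme, whose promoter window held the core at 2 places, stood at 3.89, 3.99 and 3.98 in Arid3b-null trunks, against 4.01, 4.23 and 4.20 in wild-type trunks. The difference of -0.20 ± 0.11 did not pass the test (limma, adjusted p = 0.229). Gars, Nars and Mars, the glycyl, asparaginyl and methionyl enzymes, had differences of 0.15 ± 0.14, 0.16 ± 0.11 and 0.01 ± 0.13, each with overlapping groups (limma, adjusted p = 0.474, 0.335 and 0.946). Eprs, the glutamyl-prolyl enzyme, was spread over -0.74, -1.80 and 0.12 in Arid3b-null trunks, against -1.14, -1.0 and 0.02 in wild-type trunks. That spread left a difference of -0.10 ± 0.52, which says little in either direction (limma, adjusted p = 0.905). Without the 8 synthetases, 23 of the 29 other tested genes rose and 0 fell, where 13.6% and 12.9% of all tested genes did. At an unadjusted p under 0.05 by limma 25 of them were higher and 0 lower, and their median difference was 0.98. The synthetases had the lowest median of the roles and the only member that fell, so leaving them out raises these figures by construction. Adm2 and Aldh1l2, tested only through the Arid3b-null arrays, are among the 23.

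Each of the 3 slides held 1 Arid3b-null and 1 wild-type array. The median difference of the 37 genes within a slide was 0.72 on slide 1, 0.92 on slide 2 and 0.65 on slide 3, against 0.03, -0.03 and -0.10 for all tested genes. In all 25 genes that rose every Arid3b-null array lay above every wild-type array. Higher values on every slide follow from that and are no further support. Arid3b-null replicate 2 was the highest of the Arid3b-null arrays for 28 of the 37 genes (75.7%), against 38.1% of all tested genes. Among genes that rose, the same array was the highest for 19 of 25 members (76.0%), against 54.9% of all genes that rose. Wild-type replicate 2, on the same slide, was the highest wild-type array for 20 of the 37 (54.1%), against 34.4% of all tested genes. No difference of a tested member moved by over 1.5-fold when any 1 array was left out.

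The core motif and the changes were set side by side. Of the 8 tested members with the core 6 rose, with a median difference of 1.81, and of the 21 tested members whose window lacked it 13 rose, with a median of 0.67. Among all tested genes with a window, 17.7% of 311 genes with the core rose, against 14.3% of 10957 without it. The endoplasmic reticulum stress response element ERSE, searched on both strands as a CCAAT box and a CCACG box a fixed gap apart, was in 0 of the 32 windows of members and in 0.160% of the windows of tested genes. Windows were not at hand for Slc7a3, Aldh1l2, Eif4ebp1, Slc7a5, Cth, Cars, Wars and Nars, so the core was not looked for there.

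**Figure D3:**
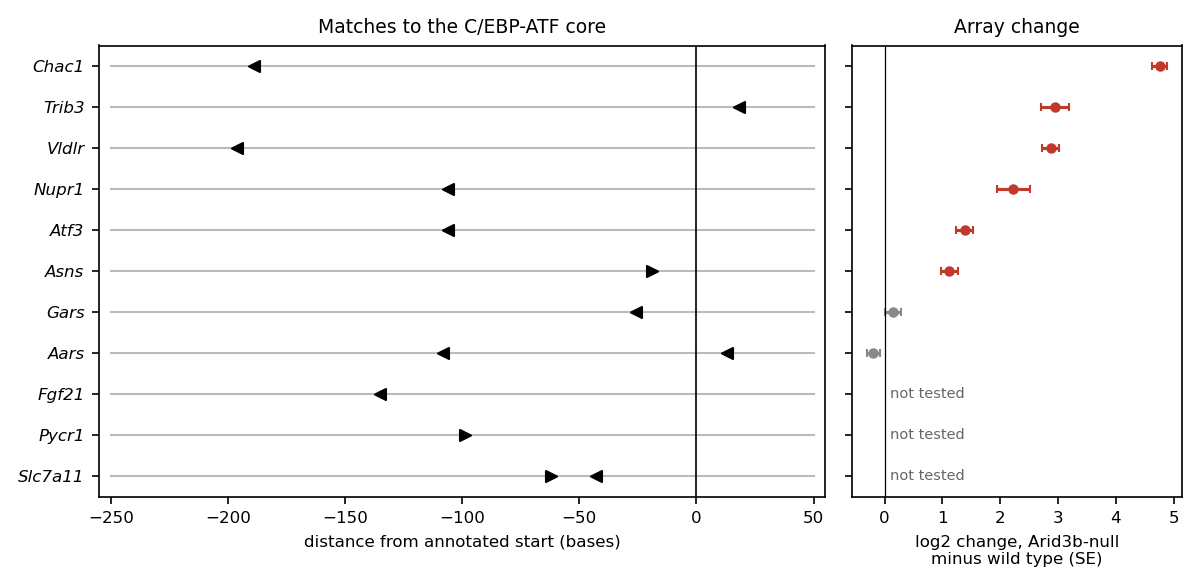
Left, position of each match to the core in bases from the annotated start (line at 0), with arrows to the right for matches along the gene's strand and to the left for the opposite strand. Right, log2 difference of the gene, Arid3b-null minus wild type, with its standard error (3 arrays a group), red where it rose: Chac1 at 4.76 is the highest of the 8 tested genes and Aars at -0.20 the lowest.

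Among 17 further genes for the eIF2 kinases, eIF2, its exchange factor eIF2B and the eIF2 phosphatase, a list without Ppp1r15a, 0 rose and 4 fell, where 13.6% and 12.9% of all tested genes did. Their median difference was -0.04. At an unadjusted p under 0.05 (limma) 1 of the 17 was higher and 5 were lower. Eif2ak2, which encodes the kinase PKR that senses double-stranded RNA, stood at -2.61, -2.29 and -2.46 in Arid3b-null trunks, against -1.60, -1.68 and -1.46 in wild-type trunks, a fall of 0.87 on the log2 scale (limma, adjusted p = 0.00479). The eIF2B subunit genes Eif2b2 and Eif2b4 had differences of -0.68 ± 0.10 and -0.63 ± 0.10 (limma, adjusted p = 0.005 and 0.00734). Eif2ak1, the kinase that senses haem shortage, had a difference of -0.47 ± 0.11 (limma, adjusted p = 0.0238), and without any array other than wild-type replicate 3 it did not pass, with adjusted p between 0.0525 and 0.0904. The kinases PERK (Eif2ak3) and GCN2 (Eif2ak4), named here after their values were seen, had differences of 0.08 ± 0.13 and 0.46 ± 0.18 and did not pass the test (limma, adjusted p = 0.704 and 0.104).

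Of 12 tested bZIP factors that can pair with ATF4, 2 rose and 2 fell (16.7% each), near the 13.6% and 12.9% of all tested genes. Jdp2, a dimer partner of the AP-1 and ATF families, stood at 0.61, 0.89 and 0.55 in Arid3b-null trunks, against -0.89, -0.68 and -0.86 in wild-type trunks, and rose by 1.49 ± 0.13 (limma, adjusted p = 0.00107). Fos was not well above background on any wild-type array and was tested only through the Arid3b-null arrays. Its difference was 2.27 ± 0.29, or 4.83-fold (limma, adjusted p = 0.00319). The bound was 2.90-fold, which holds on the scale of the main fit only. With the normexp correction by array background the rise was 1.39-fold, and with that by local background the difference was -0.64. Crebzf and Creb1 had differences of -0.45 ± 0.10 and -0.55 ± 0.14 (limma, adjusted p = 0.0191 and 0.031), and with the slide as a block Creb1 no longer passed (limma, adjusted p = 0.0681). With the probes of a gene averaged the Crebzf difference was 0.058, of the opposite sign (limma, adjusted p = 0.694), and Creb1 did not pass (limma, adjusted p = 0.0783). Crebzf did not pass without wild-type replicate 1 or 2 (adjusted p = 0.0622 and 0.0621) or Arid3b-null replicate 2 or 3 (0.0519 and 0.0532), and Creb1 did not pass without any array other than Arid3b-null replicate 1 (0.0612 to 0.0806).

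Of 30 further genes known as ATF4 targets 11 rose and 3 fell, where 13.6% and 12.9% of all tested genes did. Their median difference was 0.23. Ddit4, which encodes the mTORC1 inhibitor REDD1 and is also a hypoxia gene, stood at 6.71, 6.87 and 6.65 in Arid3b-null trunks, against 3.05, 3.72 and 3.15 in wild-type trunks. It rose by 3.44 ± 0.19, or 10.8-fold (limma, adjusted p = 0.000359). Pck2, the mitochondrial PEP carboxykinase, Cbs, which joins serine and homocysteine, and Wipi1, an autophagy protein, rose 2.31-fold, 2.13-fold and 2.07-fold, and the dim Pck2 rose 1.45-fold with the normexp correction by array background. With the slide as a block 1 of the 30 fell. Without wild-type replicate 1 the count was 5 that rose and 0 that fell, without wild-type replicate 2 it was 0 that fell, and without any other array 1 fell.

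Among 14 tested amino acid transporters outside the list 5 rose and 2 fell (35.7% and 14.3%), where 13.6% and 12.9% of all tested genes did. The neutral amino acid carriers Slc38a3 and Slc6a15 rose by 2.05 ± 0.15 and 2.02 ± 0.15 (limma, adjusted p = 0.0006 and 0.000595), and Slc6a15, near background in wild-type trunks, rose 1.63-fold with the normexp correction by array background. Slc7a4, a relative of the cationic carriers, and Slc43a2, a carrier of large neutral amino acids, rose 2.27-fold and 2.12-fold. Without wild-type replicate 1 or 3, without Arid3b-null replicate 1 or 3, or with the slide as a block, 1 of these transporters fell. Of 16 other enzymes of serine, glycine and folate metabolism 2 rose and 5 fell (12.5% and 31.25%, beside the same 13.6% and 12.9%). Among these enzymes 1 rose without any 1 of the 6 arrays or with the slide as a block. Tyms, which makes thymidylate for DNA synthesis, stood at -2.44, -2.75 and -2.64 in Arid3b-null trunks, against -1.37, -1.43 and -1.72 in wild-type trunks, and fell by 1.11 on the log2 scale (limma, adjusted p = 0.00329). Mat2a, which makes the methyl donor S-adenosylmethionine, and Gcsh, of the glycine cleavage system, had differences of -0.68 ± 0.10 and -0.64 ± 0.11, and Mtr, methionine synthase, had 0.81 ± 0.15 (limma, adjusted p = 0.00509, 0.00958 and 0.0112).

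Of 15 other cytosolic synthetases 1 rose (Qars) and 2 fell (Yars and Farsa), where 13.6% and 12.9% of all tested genes did. With the slide as a block 0 rose and 0 fell, with adjusted p of 0.0553, 0.0541 and 0.0724 by limma. None rose without any 1 of the 6 arrays, and 1 fell without Arid3b-null replicate 1 and 0 without any other array. Of 16 tested mitochondrial synthetases 3 rose (Ears2, Pars2 and Iars2) and 2 fell (Mars2 and Wars2). These are 18.75% and 12.5%, near the shares of all tested genes. With the slide as a block Iars2 did not pass (limma, adjusted p = 0.0582). With 1 array left out 2 of the mitochondrial synthetases rose without wild-type replicate 3 and 0 or 1 without any other array, and 0 or 1 fell.

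The ATF6 and XBP1 branches of the unfolded protein response were set beside the list because both meet ATF4 under endoplasmic reticulum stress. Of 22 targets of those branches and chaperones 0 rose and 6 fell (27.3%), where 13.6% and 12.9% of all tested genes did. At an unadjusted p under 0.05 by limma 0 were higher and 9 lower. The median difference was -0.30, and 3 fell without wild-type replicate 1 or 2. Dnajb11, a co-chaperone of BiP, and Creld2, a secreted stress protein, had differences of -0.77 ± 0.13 and -0.85 ± 0.16 (limma, adjusted p = 0.00781 and 0.0104). Hspa5, which encodes BiP and is named here after its value was seen, stood at 5.23, 5.29 and 4.79 in Arid3b-null trunks, against 5.41, 5.55 and 5.38 in wild-type trunks, and its difference of -0.34 ± 0.16 did not pass (limma, adjusted p = 0.159).

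**Figure D4:**
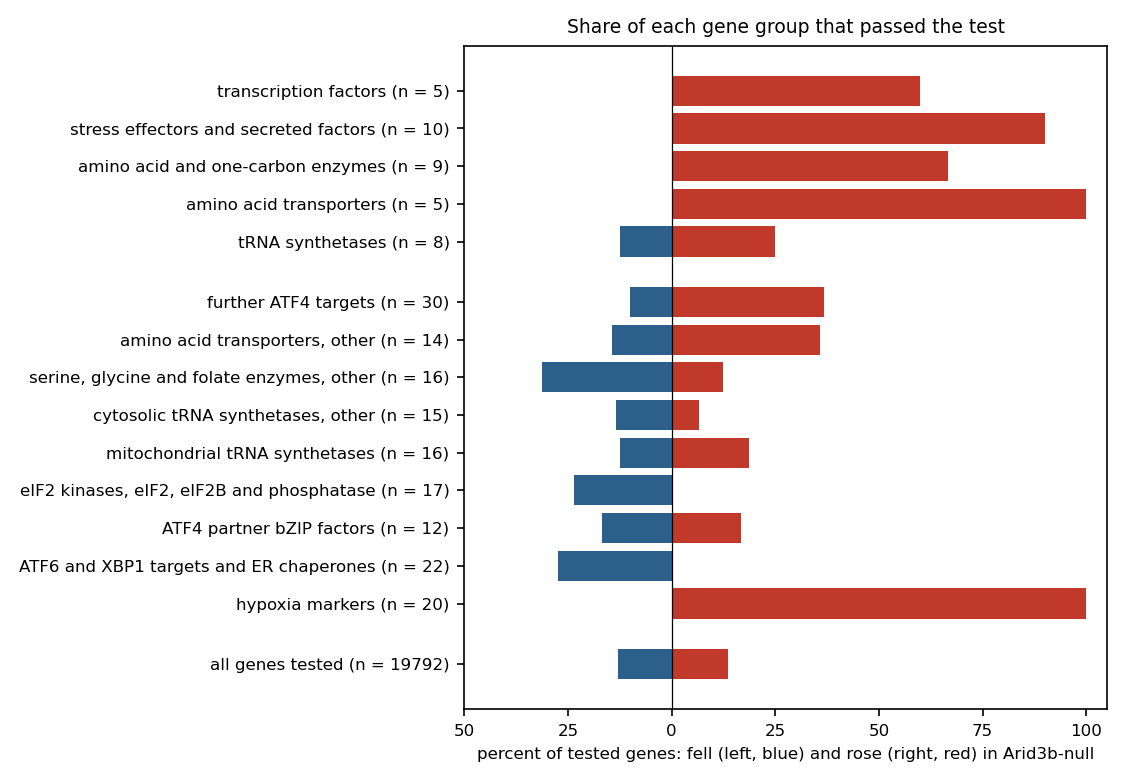
Percent of the tested genes of each group that rose (red, to the right of 0) and fell (blue, to the left of 0) in Arid3b-null against wild-type trunks at an adjusted p under 0.05 by limma, with n the genes tested. The upper 5 bars are the roles of the list, and the lowest bar, all tested genes, shows 13.6% that rose and 12.9% that fell.

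Hypoxia markers were also higher in Arid3b-null trunks. They were chosen with earlier results of these data known, so their count is a description and no independent support. All 20 markers were well above background on all 6 arrays and all 20 rose, where 13.6% of all tested genes did. Their median difference was 2.42. Rises ran from 1.43-fold for Ldha to 35.2-fold for the enolase gene Eno2 (21.7-fold with the normexp correction by array background). The summed linear signal of the 20 markers, each relative to the array's 75th percentile, was 722 to 767 in Arid3b-null trunks, against 359 to 443 in wild-type trunks. None of the 20 is a member of the list of 40. Ndrg1, a classical hypoxia gene, stood at 3.53, 3.66 and 3.37 in Arid3b-null trunks, against -0.55, -0.39 and -0.60 in wild-type trunks. The part of the hypoxia genes in the changes of the 40 was not tested.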

How the data were processed

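Trunk RNA of 3 Arid3b-null and 3 wild-type pools was labelled with Cy3 and hybridised to one-colour Agilent arrays, per the labels' protocols. The deposited scanner files hold linear intensity values from Feature Extraction 10.7.3.1, protocol GE1_107_Sep09, design 026655 with mouse build mm9, per the file headers. Their processed signal is already background-subtracted. The deposited value table holds log2 values of 24181 probes, made by the authors with a normalization not given in the sources used here, and it correlated at 0.998 to 1.00 per array with log2 of the scanner's processed signal. The median of its columns was 6.77 on every array.

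From the 43020 spots per array that are not controls, outlier spots (100 to 169 per array) were left out, log2 of the processed signal was taken minus its 75th percentile (a signal of 611 to 844), and spots of 1 probe were averaged. Between 61.6% and 68.8% of spots were well above background. Probes entered the test if, in 1 group or both, the 3 arrays each measured them well above background, and a gene was represented by its brightest tested probe. RefSeq accessions named 26424 of 39429 probes through the GRCm38.p6 gene table, and the others kept the name in the files or their identifier. Groups were compared with limma 3.58.1 in R 4.3.3 (lmFit and eBayes, two-sided, Benjamini-Hochberg over 19792 genes, threshold 0.05) on all 6 arrays without covariates. The code of the fit was run on simulated data with independent errors between arrays. That run cannot speak to the correlation between arrays of the same slide. Precision is limited by the 3 arrays per group, and p-values measure the spread between pools. Where a group was below background on every array, a bound is given on the scale of the main fit. It sets that group on each array to its own signal or to the lowest signal well above background there, whichever is higher. The p-values belong to the difference without the bound.

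Each slide held the arrays of 1 replicate number. Deviations from the group means correlated at 0.163, 0.387 and 0.278 for arrays of the same slide, and at -0.346 to 0.117 otherwise, so the number was used as a pairing block in an alternative. The members and the other gene lists were chosen with earlier results of these data known. Values of every array are given for Atf4, for members with a difference of at least 1 that passed and for the largest rise and fall of each role, further members being added for context. Other lists name at most 4 genes by the smallest adjusted p unless stated.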

Additional observations from a re-analysis of the deposited data

How the results depend on the processing

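The 13 alternatives other than normexp by local background kept the direction of every call among the 40 genes, and 18 of the 26 members that passed did so in all 13. The counts were 25 that rose and 1 that fell with quantile normalization and with normexp by array background, 23 and 1 with median scaling, and 24 and 1 with the replicate number (the slide) as a block, where the pairing ended, among the members, the call of Ppp1r15a alone. Wars ended as a call in the deposited table and where the probes of a gene were averaged (0 members fell in both, 25 rose in both). No filter left 0 members that fell, 1288 and 998 genes in all that rose and fell, and 11 and 9 on the other pathway lists, where 24 and 26 had passed; 32530 genes were then tested, and the cause was not tested. With 1 array left out 19 to 24 members rose and 0 to 1 fell, 1661 to 2047 genes in all rose and 1205 to 2037 fell, and on the other lists 12 to 19 rose and 11 to 18 fell. Normexp by local background left 0 members that rose, 0 that fell, 2 genes in all that rose and 0 that fell, 0 and 0 on the other lists, and Arid3b at -1.39 (limma, adjusted p = 0.289). The signs of Fos (-0.64), Slc6a15 (-0.37) and Pck2 (-0.41) turned there, as did those of the members Gdf15 (-0.84) and Aars (0.18), which had not passed, and Crebzf was 0.058 with its probes averaged. In that setting the highest local background was 34802 on wild-type replicate 3, against medians of 42.0 to 44.0, and its part was not tested.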
